A study of Mus musculus with 12 samples.

Results

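The Notch pathway was followed through 10 genes in cells labelled MLO-Y4, a mouse osteocyte-like line: the receptors Notch1, Notch2 and Notch3, the ligands Jag1 and Jag2, the DNA-binding partner Rbpj, and the target genes Hes1, Hey1, Hey2 and Heyl. The members were chosen by name as pathway genes, with earlier results of these data known. They are 10 of 51707 annotated genes whose estimated reads and TPM were summed from the transcripts of each library. There were 3 libraries in each of 4 groups: differentiated cells with BIGH3, differentiated control cells, undifferentiated cells with BIGH3 and undifferentiated control cells. All groups carried the wild type label (WT) and grew on collagen-coated plates (0.15 mg/mL). Recombinant human BIGH3, a secreted matrix protein encoded by TGFBI, was added to the treated cells, and the series asks what it does to Gja1. Differentiation medium held β-glycerophosphate (4 mM), ascorbic acid (50 µg/mL) and serum (10%). No such additions were given for undifferentiated cells, so differentiation and the medium itself cannot be told apart. The dose and time of BIGH3, what the controls received, and whether the 3 libraries of a group were separate cultures are not stated in the labels, and p-values therefore measure only the spread between these libraries.

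Notch receptors are cut when a ligand on a neighbouring cell binds them, and the freed intracellular part enters the nucleus and joins RBPJ on DNA. RBPJ holds target genes down with corepressors when no Notch is bound and recruits coactivators when it is, and the HES and HEY repressors are the classic targets. In bone, Notch signalling restrains osteoblast maturation, and Notch activity in osteocytes affects bone remodelling.

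Depth was 19014492 to 27612155 estimated reads per library. The deposited data carry an MC3 prefix that is absent from the line's label, and which line was sequenced was not tested. Of 7 osteocyte markers, 5 had reads in differentiated BIGH3, undifferentiated BIGH3 and undifferentiated control cells and 6 in differentiated control cells. Fgf23 had no read in any library, and Sost had 0, 7 and 3 reads in differentiated control cells and none elsewhere, so both genes that define mature osteocytes were at or near 0. The 7 markers summed to 339 to 341 TPM in differentiated BIGH3 cells, 221 to 230 TPM in differentiated control cells, 259 to 266 TPM in undifferentiated BIGH3 cells and 258 to 273 TPM in undifferentiated control cells. Pdpn and Gja1 made up most of these sums. Dmp1 ran with the sums between the differentiated groups, with 38.9 ± 4.9 TPM in BIGH3 cells and 16.6 ± 0.47 TPM in control cells (SD, n = 3 each). Phex ran the other way between the differentiated groups, with 6.07 ± 0.73 TPM in BIGH3 cells and 20.7 ± 1.7 TPM in control cells (SD, n = 3 each), as did Mepe, with 2, 0 and 0 reads in BIGH3 cells and 13, 19 and 10 in control cells. Liver transcripts stood out in differentiated BIGH3 3, differentiated control 2 and undifferentiated control 2, where 8 liver markers summed to 40.6, 31.7 and 92.1 TPM, and less so in undifferentiated BIGH3 1 (18.6 TPM). In the other 8 libraries they summed to 2.46 to 4.96 TPM. Other cell type markers also differed between the groups. Chondrocyte markers summed to 39.0 to 44.0 TPM in differentiated BIGH3 cells, 62.0 to 68.5 TPM in differentiated control cells, 121 to 131 TPM in undifferentiated BIGH3 cells and 125 to 140 TPM in undifferentiated control cells, and osteoblast markers to 416 to 458, 522 to 622, 679 to 843 and 799 to 846 TPM in the same groups. Most of the osteoblast sum was Col1a1. Alpl had means of 4.72, 14.7, 0.255 and 0.510 TPM and Bglap of 20.5, 66.3, 18.2 and 15.1 TPM in these groups, so both were highest in differentiated control cells, where the sum was not. Macrophage and osteoclast markers summed to 16.3 to 17.1, 30.0 to 32.1, 3.31 to 3.36 and 3.93 to 4.66 TPM, nearly all of it Ctsk (means of 15.1, 29.6, 2.55 and 3.11 TPM), whereas Cd68 had means of 0.702, 0.679, 0.584 and 0.776 TPM and Ptprc and Csf1r had at most 0.443 TPM in any library. Endothelial markers summed to 1.38 to 2.04, 2.03 to 2.14, 2.66 to 2.84 and 2.68 to 3.03 TPM. Their part in the members' results was not tested. In bulk RNA such as this, fewer cells expressing a gene and less RNA per cell cannot be told apart.

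With BIGH3, differentiated cells held less Hes1, Jag1, Notch1 and Notch3 and more Rbpj than differentiated control cells, while undifferentiated cells showed no called change in any member. In differentiated cells the calls of Hes1, Jag1 and Rbpj held under every alternative tried. Those of Notch1 and Notch3 were lost in TPM, and that of Notch3 also without some libraries. Hes1 fell most among the well-covered members (2.91-fold), and Rbpj rose 1.68-fold. Differentiation without BIGH3 lowered Notch1, Notch3, Jag1 and Rbpj. Of the 10 members, 7 passed the filter on low counts and were tested among 14711 genes; Jag2, Hey1 and Hey2 did not pass. A gene was called at an adjusted p below 0.05 (edgeR, Benjamini-Hochberg over all genes tested).

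Of the 7 members tested, BIGH3 changed 1 upward and 5 downward in differentiated cells, where 22.6% of all genes tested were called higher and 22.9% lower (45.5% in all). Their median log2 fold change was -0.28, against -0.01 over all genes. In undifferentiated cells edgeR called 0 of 7 (0.0204% of all genes), with 0 at an unadjusted p below 0.05, and DESeq2 and limma on TPM also called 0. On differentiation 4 of 7 were called in control cells, all lower, where 28.6% of genes were called lower, 29.1% higher and 57.7% in all, and with BIGH3 2 were called higher and 5 lower, where 28.9% and 27.7% of genes were (56.6% in all). The difference between the states was called for 4 members (1 higher, 3 lower), where 16.2% and 16% of genes were (32.2% in all). The share of tested members called was 85.7% for BIGH3 in differentiated cells, against 45.5% of all genes. It was 57.1% on differentiation of control cells, near the 57.7% of all genes. Of the calls with BIGH3 in differentiated cells, that of Heyl rests on 3 reads in the treated group. Heyl passed the low-count filter through the other groups, which favoured a lower call in advance, and the 85.7% counts that call. In TPM 1 member was called higher with BIGH3 in differentiated cells and 3 lower. Because the members were chosen with earlier results of these data known, their share is a description and not independent support. The comparisons share libraries and are not independent.

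**Figure D1:**
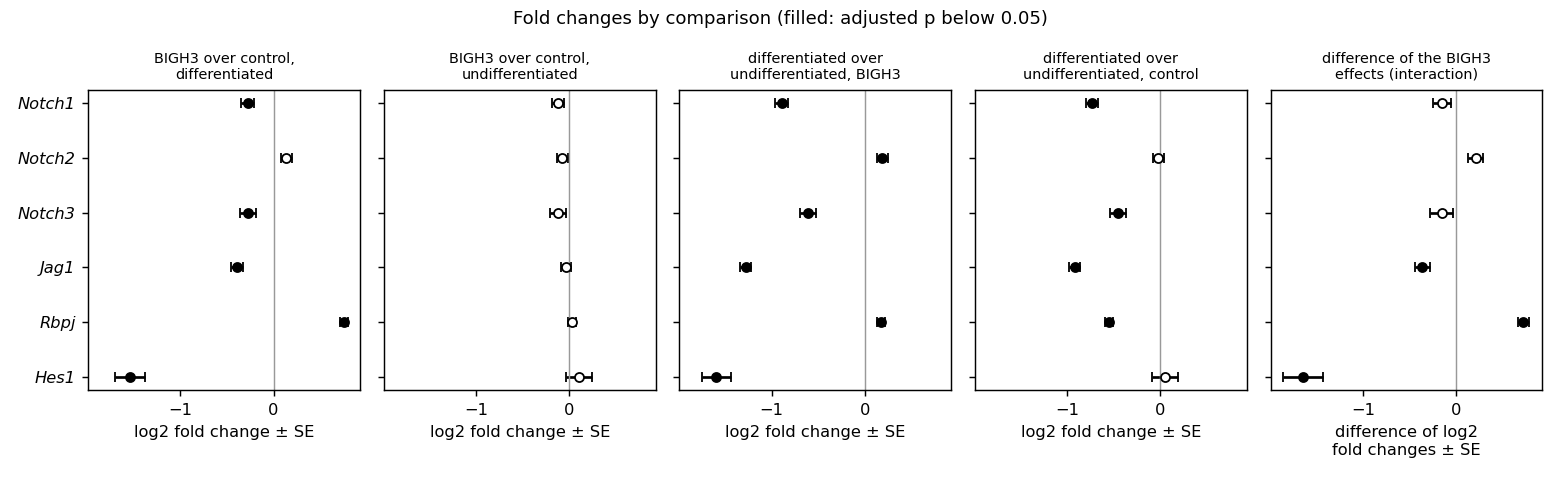
Log2 fold changes (points) with standard errors (bars) of the 6 well-covered members, for BIGH3 over control within each state, for differentiated over undifferentiated cells within each treatment, and for the difference of the BIGH3 effects between the states; filled points passed an adjusted p of 0.05. With BIGH3 in differentiated cells Rbpj (0.75) and Hes1 (-1.54) lie furthest from 0, and in undifferentiated cells all 6 lie from -0.12 to 0.10.

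Promoter windows of 300 bases (250 before to 50 after each RefSeq start, GRCm38.p6) were on hand for 7 of the 10 members: Notch1, Notch2, Notch3, Jag1, Jag2, Rbpj and Hey2. Those of the 4 members that were called both with BIGH3 in differentiated cells and on differentiation of control cells are shown, because RBPJ, itself a member, binds DNA at a core that can be looked for in them. The core searched was TGGGAA on either strand, and capitals mark it.
Rbpj, chr5:53590236-53590535, plus strand: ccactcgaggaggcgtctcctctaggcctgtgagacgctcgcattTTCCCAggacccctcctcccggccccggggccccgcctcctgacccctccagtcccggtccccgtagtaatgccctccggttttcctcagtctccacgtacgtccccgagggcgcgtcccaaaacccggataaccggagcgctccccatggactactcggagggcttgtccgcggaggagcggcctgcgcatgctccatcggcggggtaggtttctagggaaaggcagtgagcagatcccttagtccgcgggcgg
Jag1, chr2:137116471-137116770, minus strand: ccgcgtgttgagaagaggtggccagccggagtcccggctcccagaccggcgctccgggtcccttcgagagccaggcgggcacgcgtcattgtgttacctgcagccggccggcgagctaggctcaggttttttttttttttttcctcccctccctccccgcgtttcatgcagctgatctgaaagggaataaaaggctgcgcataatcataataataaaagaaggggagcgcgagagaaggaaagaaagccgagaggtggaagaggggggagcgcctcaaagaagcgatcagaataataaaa
Notch1, chr2:26503773-26504072, minus strand: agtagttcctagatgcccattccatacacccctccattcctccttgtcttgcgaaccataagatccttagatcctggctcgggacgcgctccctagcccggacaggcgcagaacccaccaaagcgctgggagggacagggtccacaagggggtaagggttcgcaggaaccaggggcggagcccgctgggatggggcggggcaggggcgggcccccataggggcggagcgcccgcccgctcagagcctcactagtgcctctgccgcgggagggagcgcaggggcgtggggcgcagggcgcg
Notch3, chr17:32166841-32167140, minus strand: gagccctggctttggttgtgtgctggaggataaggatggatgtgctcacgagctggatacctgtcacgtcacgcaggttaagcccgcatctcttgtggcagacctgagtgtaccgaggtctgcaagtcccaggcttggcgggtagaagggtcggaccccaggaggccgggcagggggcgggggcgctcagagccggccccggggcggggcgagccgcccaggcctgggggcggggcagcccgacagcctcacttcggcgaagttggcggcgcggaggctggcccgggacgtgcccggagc

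The Rbpj window held the core once, 205 bases before the start and on the minus strand, so that it reads TTCCCA in the line above. This start lies 15 bases from that of Rbpj-203, the transcript with most Rbpj signal. A second RefSeq start of Rbpj, with the window chr5:53590096-53590395, held the core at 149 and 65 bases before it, and the site at 65 bases is the same one, since the windows overlap. The Hey2 window held it at 207 and 3 bases before the start, and those of Notch1, Notch2, Notch3, Jag1 and Jag2 did not hold these letters. Among all 32851 promoter windows of the table, 25.6% held the core. The HES and HEY repressors bind other sites. These were searched as the N box CACNAG and the class C site CACGNG on either strand, of which CACGAG counts as both. Notch1 held the N box 3 times, with the matches at 3 and 1 bases before the start overlapping. Notch3 held it at 204 and 159 bases before the start, the first also matching the class C site, and Notch2 held one of each. Jag1 held the class C site at 249 and 171 bases before the start and Jag2 held it 19 bases after. The start used lies 124 bases from that of the transcript Jag1-201 and 281 bases from that of Jag2-201. The Jag2 window thus lies wholly inside the annotated gene. Those of Notch1 and Rbpj also lie wholly inside the annotated spans of their genes. Of all windows, 42.5% held the N box and 27.5% the class C site. These matches describe letters and are not measured binding.

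Levels between genes can be set side by side per length, in TPM, a share of transcripts corrected for length. In differentiated BIGH3 cells Rbpj came first at 48.7 ± 2.1 TPM, ahead of Notch2 at 19.3 ± 1.9 and Jag1 at 8.75 ± 0.81 TPM. Hes1 at 5.02 ± 1.4, Notch1 at 4.43 ± 0.087 and Notch3 at 4.35 ± 0.11 TPM followed, and each of these overlapped its neighbour in the order (SD, n = 3). In differentiated control cells the order was Rbpj at 28.1 ± 1.6, Notch2 at 17.4 ± 1.4, Hes1 at 13.6 ± 0.56 and Jag1 at 11.1 ± 0.20 TPM, with no overlap between neighbours. Notch3 at 5.31 ± 0.45 and Notch1 at 5.31 ± 0.63 TPM came last and overlapped.

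Undifferentiated cells kept another order. With BIGH3 it was Rbpj at 49.9 ± 1.7, Jag1 at 25.5 ± 0.72, Notch2 at 19.8 ± 2.1, Hes1 at 16.7 ± 2.7, Notch1 at 9.95 ± 0.66 and Notch3 at 7.86 ± 0.94 TPM, and of these neighbours Notch2 and Hes1 overlapped. In undifferentiated control cells it was Rbpj at 51.5 ± 1.3, Jag1 at 27.4 ± 0.55, Notch2 at 21.5 ± 0.68, Hes1 at 15.7 ± 2.0, Notch1 at 11.01 ± 0.50 and Notch3 at 8.66 ± 0.79 TPM, with no overlap. Jag1 thus stood above Notch2 in both undifferentiated groups and below it in both differentiated groups. Jag2, Heyl, Hey1 and Hey2 stayed under 1 TPM in all 12 libraries.

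**Figure D2:**
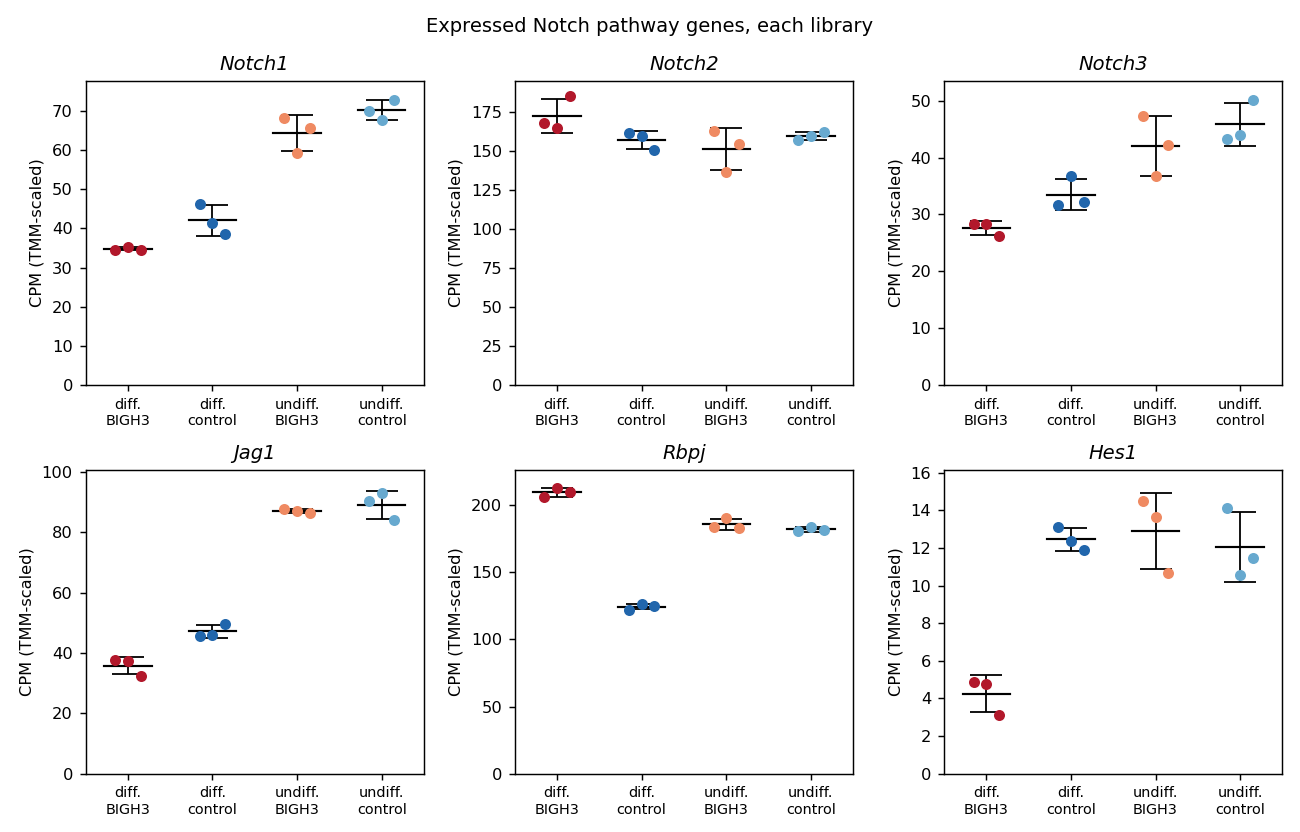
Levels of the 6 well-covered members in CPM (reads scaled to library size, linear axis) in differentiated (diff.) and undifferentiated (undiff.) cells with BIGH3 or control; points are the 3 libraries of a group and bars show the mean and SD. Hes1 lies between 3.13 and 4.88 CPM in differentiated BIGH3 cells and above 10 CPM in each of the other groups, and Rbpj is lowest in differentiated control cells (122 to 126 CPM).

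Notch1 (ENSMUSG00000026923.15, GRCm38 chromosome 2, 26457903 to 26516663, minus strand) encodes a receptor that many tissues use. It had 34.6, 35.2 and 34.5 CPM in differentiated BIGH3 cells, against 46.3, 41.4 and 38.5 CPM in differentiated control cells. All treated libraries lay below all controls, though the lowest control was near them. Its log2 fold change was -0.28 ± 0.07 (SE; edgeR adjusted p = 0.00290), and in TPM it was no longer called (adjusted p = 0.0886 with a pseudocount of 1 and 0.0793 with 0.1, limma). In undifferentiated cells Notch1 had 68.2, 59.3 and 65.8 CPM with BIGH3, against 70.1, 67.7 and 72.7 CPM in controls. These groups overlapped, and the log2 fold change of -0.12 was not called (95% interval -0.26 to 0.01). The BIGH3 effects in the 2 states did not differ beyond the test's threshold, with a difference of -0.15 ± 0.10 (interaction, adjusted p = 0.238). Differentiated cells held less Notch1 than undifferentiated cells both with BIGH3, by a log2 fold change of -0.89 ± 0.07 (adjusted p = 7.28e-10), and in controls, by -0.74 ± 0.07 (adjusted p = 8.66e-09).

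Notch2 (ENSMUSG00000027878.11, chromosome 3, 98013527 to 98150361, plus strand), the receptor whose truncating mutations cause the bone-loss disorder Hajdu-Cheney syndrome in humans, varied least among the receptors. It had 168, 165 and 185 CPM in differentiated BIGH3 cells, against 162, 159 and 150 CPM in differentiated control cells. The groups did not overlap, but the log2 fold change of 0.13 ± 0.06 was not called (edgeR adjusted p = 0.0718, 95% interval 0.01 to 0.26). It was called in a fit of the compared groups alone (adjusted p = 0.0347) and without undifferentiated BIGH3 2 (adjusted p = 0.0378). Undifferentiated cells had 163, 137 and 154 CPM with BIGH3, against 157, 159 and 162 CPM in controls, and these overlapped (log2 fold change -0.07, 95% interval -0.20 to 0.05). Without undifferentiated BIGH3 1 the difference between the BIGH3 effects in the 2 states was called (0.27, adjusted p = 0.0202), whereas with all libraries it was 0.21 ± 0.08 (adjusted p = 0.0631).

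On differentiation Notch2 had 157 ± 5.9 CPM in differentiated control cells, against 159 ± 2.6 CPM in undifferentiated control cells (log2 fold change -0.02 ± 0.06, not called). It was called lower there with library totals (-0.17, adjusted p = 0.0353) and in TPM (-0.29 and -0.31, adjusted p = 0.0165 and 0.0159 with pseudocounts of 1 and 0.1). With BIGH3 it was higher in differentiated cells, by 0.19 ± 0.06 (adjusted p = 0.0107). That call was lost with library totals as the scaling (0.08, adjusted p = 0.343), without undifferentiated BIGH3 2 (adjusted p = 0.0861), without differentiated BIGH3 3 (adjusted p = 0.0976) and without the 3 libraries richest in liver transcripts (adjusted p = 0.128), and in TPM its sign turned (-0.03). Other scalings moved the median log2 fold change of all genes on differentiation: library totals by -0.11 with BIGH3 and -0.15 in controls, and TPM by -0.17 and -0.24 with a pseudocount of 1 and by -0.21 and -0.30 with 0.1.

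Notch3 (ENSMUSG00000038146.8, chromosome 17, 32120820 to 32166852, minus strand) is best known from the mural cells of blood vessels. It had 28.4, 28.4 and 26.2 CPM in differentiated BIGH3 cells, against 31.7, 36.7 and 32.1 CPM in differentiated control cells. The treated libraries all lay lower. The log2 fold change of -0.27 ± 0.09 was called (edgeR adjusted p = 0.0169), but not without differentiated BIGH3 3 (adjusted p = 0.0576), without differentiated control 2 (adjusted p = 0.0796), without the 3 or 4 libraries carrying liver transcripts (adjusted p = 0.202 and 0.178) or in TPM (adjusted p = 0.0897 and 0.0794). In undifferentiated cells Notch3 had 47.3, 36.8 and 42.2 CPM with BIGH3, against 43.3, 44.0 and 50.2 CPM in controls, and the groups overlapped (-0.12, 95% interval -0.30 to 0.06). The difference between the states was -0.15 ± 0.12 (interaction, adjusted p = 0.379), and it turned to 0.077 without the 4 libraries carrying liver transcripts. It was lower in differentiated than in undifferentiated cells, by -0.61 ± 0.09 with BIGH3 (adjusted p = 7.69e-06) and by -0.45 ± 0.09 in controls (adjusted p = 1.45e-04). In TPM, 6 mural cell markers summed to 40.0 to 43.0 TPM in differentiated BIGH3 cells, 50.5 to 57.1 TPM in differentiated control cells, 53.0 to 61.5 TPM in undifferentiated BIGH3 cells and 59.1 to 63.9 TPM in undifferentiated control cells, with 5 of the 6 having reads in each group. Kcnj8 was the one without reads in the first 3 of these groups and Abcc9 in the last. Most of the sum was Pdgfrb, which in CPM, the scale of the Notch3 values, had 172 ± 2.5 in differentiated BIGH3 cells, 229 ± 5.4 in differentiated control cells, 189 ± 10.8 in undifferentiated BIGH3 cells and 199 ± 9.3 in undifferentiated control cells. In CPM Pdgfrb was thus lower with BIGH3 in differentiated cells, as Notch3 was, but higher in differentiated than in undifferentiated control cells, where Notch3 was lower. The part of these markers in the result was not tested.

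Jag1 (ENSMUSG00000027276.7, chromosome 2, 137081456 to 137116644, minus strand) encodes a membrane-bound ligand of Notch receptors. It had 37.6, 37.3 and 32.5 CPM in differentiated BIGH3 cells, against 45.8, 45.9 and 49.7 CPM in differentiated control cells. The groups did not overlap, and the log2 fold change was -0.39 ± 0.06 (edgeR adjusted p = 2.72e-05), called under every alternative tried. In undifferentiated cells it had 87.6, 87.0 and 86.4 CPM with BIGH3, against 90.3, 93.0 and 84.0 CPM in controls. These overlapped, with a log2 fold change of -0.03 (95% interval -0.15 to 0.08). The effects in the 2 states differed by -0.36 ± 0.08 (interaction, adjusted p = 0.00248), a call lost in TPM (adjusted p = 0.137 and 0.122). Jag1 had the largest fall on differentiation among the members called in control cells, 1.89-fold (log2 fold change -0.92 ± 0.06, adjusted p = 3.56e-11), and it fell 2.43-fold with BIGH3 (-1.28 ± 0.06, adjusted p = 2.81e-13).

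Jag1 signal was split between the coding transcript Jag1-201 and Jag1-202, annotated as retaining an intron. Jag1-202 made up 14.8 ± 4.8% of Jag1 TPM in differentiated BIGH3 cells, 11.1 ± 3.2% in differentiated control cells, 18.7 ± 2.7% in undifferentiated BIGH3 cells and 18.6 ± 4.1% in undifferentiated control cells. These shares overlapped between treatments within each state. Jag2, the second Jagged ligand, had 12, 0 and 8 reads in differentiated BIGH3 cells and 4, 3 and 1 in differentiated control cells, then 4, 2 and 6 in undifferentiated BIGH3 cells and 0, 2 and 3 in undifferentiated control cells. At 45 reads over all 12 libraries it was too low for the fit, and the counts overlapped between all groups.

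Rbpj (ENSMUSG00000039191.12, chromosome 5, 53466152 to 53657362, plus strand) encodes the DNA-binding hub of the pathway. It had 206, 213 and 210 CPM in differentiated BIGH3 cells, against 122, 126 and 125 CPM in differentiated control cells. Each treated library stood well above each control. The log2 fold change was 0.75 ± 0.04 (edgeR adjusted p = 7.99e-12), and it was called under every alternative tried. In undifferentiated cells Rbpj had 184, 190 and 183 CPM with BIGH3, against 181, 184 and 181 CPM in controls, which overlapped (0.03, 95% interval -0.06 to 0.12). The effects in the 2 states differed by 0.72 ± 0.06 (interaction, adjusted p = 7.56e-09).

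In control cells Rbpj fell by 0.55 on the log2 scale on differentiation (SE 0.04, adjusted p = 8.40e-10), with 122 to 126 CPM in differentiated cells, against 181 to 184 CPM in undifferentiated cells. With BIGH3 it was higher in differentiated cells by 0.17 ± 0.04 (adjusted p = 0.00154), but with library totals it was 0.06 and not called (adjusted p = 0.236), and in TPM the sign turned (-0.03). Rbpj-203, a coding transcript, held 81.9 ± 0.24% of Rbpj TPM in differentiated BIGH3 cells, 92.1 ± 4.3% in differentiated control cells, 86.5 ± 1.4% in undifferentiated BIGH3 cells and 89.0 ± 1.3% in undifferentiated control cells. It stood at 39.6, 38.4 and 41.6 TPM in differentiated BIGH3 cells, against 25.6, 26.6 and 25.3 TPM in differentiated control cells. Rbpj-201, also coding, stood at 4.60, 6.12 and 4.52 TPM, against 2.02, 1.33 and 0.366 TPM in the same groups. Rbpj-207, coding as well, stood at 1.58, 2.01 and 2.53 TPM, against 1.11, 1.01 and 0.490 TPM. Rbpj-203, Rbpj-201 and Rbpj-207 were thus each higher in every treated library than in every control. Sharing of reads with pseudogene copies was small where reads were assigned to them: Rbpj-ps3 had 16 reads and Rbpj-ps1 had 3, all in undifferentiated control 2. The antisense gene Gm10441 had 3 to 14 reads. No source used here states the strand of the libraries, so antisense reads could not be separated from Rbpj reads.

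Hes1 (ENSMUSG00000022528.8, chromosome 16, 30064384 to 30067796, plus strand) encodes a basic helix-loop-helix repressor and is the best-known Notch target. It had 4.88, 4.76 and 3.13 CPM in differentiated BIGH3 cells, against 13.1, 12.4 and 11.9 CPM in differentiated control cells. Every treated library was below every control, by a log2 fold change of -1.54 ± 0.16 (edgeR adjusted p = 1.78e-07). The lowest treated value came from differentiated BIGH3 3, the library with liver transcripts (40.6 TPM of summed markers), and the fall was called under every alternative tried, including those without that library. Undifferentiated cells had 14.5, 13.6 and 10.6 CPM with BIGH3, against 14.1, 10.5 and 11.5 CPM in controls, and these overlapped (log2 fold change 0.10, 95% interval -0.19 to 0.40). The effects in the 2 states differed by -1.64 ± 0.21 (interaction, adjusted p = 6.59e-06).

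Hes1 did not separate with differentiation in control cells, with 12.5 ± 0.61 CPM in differentiated and 12.05 ± 1.85 CPM in undifferentiated control cells (log2 fold change 0.05, adjusted p = 0.779, with a sign that turned under library totals, in TPM, without undifferentiated control 2 and without the 3 or 4 libraries carrying liver transcripts, to between -0.20 and -0.03). With BIGH3 it was 3.01-fold lower in differentiated cells (-1.59 ± 0.16, adjusted p = 7.05e-08). The coding transcript Hes1-201 stood at 4.89, 4.82 and 3.46 TPM in differentiated BIGH3 cells, against 13.8, 12.7 and 11.8 TPM in differentiated control cells. The coding transcript was therefore lower in each treated library.

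Heyl (ENSMUSG00000032744.4, chromosome 4, 123233556 to 123249875, plus strand), a HEY-family repressor, was rare. It had 0, 1 and 2 reads in differentiated BIGH3 cells, against 24, 14 and 9 reads in differentiated control cells. The groups did not overlap. With 3 reads against 47 the ratio of rates was 0.0739 (95% counting interval 0.0147 to 0.229, counting error only). In undifferentiated cells it had 13, 9 and 13 reads with BIGH3, against 9, 11 and 3 in controls, which overlapped. Heyl was called lower by edgeR with BIGH3 in differentiated cells (adjusted p = 5.69e-04). The effects in the 2 states differed (interaction, adjusted p = 0.00191), a call lost in TPM with a pseudocount of 1 (limma, adjusted p = 0.0712). Heyl had 10 reads or more in 5 of the 12 libraries and passed the low-count filter through the other groups. Fits of the compared groups alone gave no value for it in either comparison with differentiated BIGH3 cells, so these calls depend on which groups are fitted together. Across the states with BIGH3, 3 reads in differentiated against 35 in undifferentiated cells gave a ratio of rates of 0.0950 (0.0187 to 0.301; adjusted p = 0.00182, and 0.276 in TPM with a pseudocount of 1). In controls 47 against 23 reads gave a log2 fold change of 1.10 ± 0.56, not called (adjusted p = 0.0984), but called with length offsets (0.0264) and in TPM (0.0475 and 0.0294). The TPM of Heyl in differentiated control 3 rests mostly on 1 transcript not annotated as coding, Heyl-202, at 0.780 of 0.854 TPM. Hey1 had 1, 0 and 1 reads in undifferentiated BIGH3 cells and none elsewhere, and Hey2 had none in any library. For Hey2 a count of 0 over the 12 libraries together allows up to 0.0111 CPM (3 reads), so it was not detectable at this depth.

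**Figure D3:**
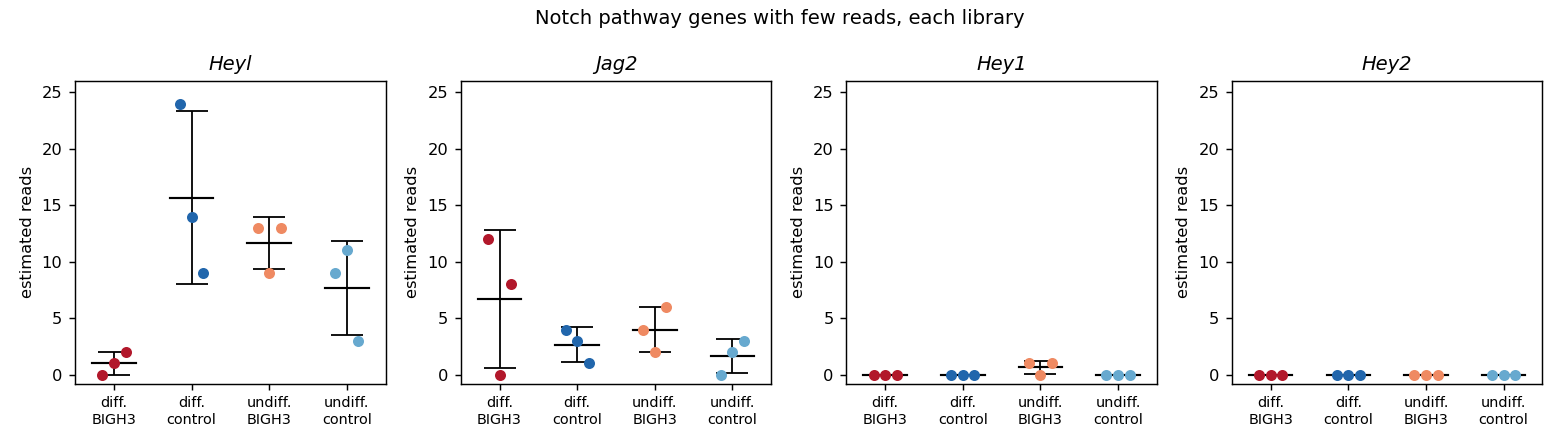
Estimated reads per library of Jag2, Heyl, Hey1 and Hey2, the members with few reads (linear axis), in differentiated (diff.) and undifferentiated (undiff.) cells. Heyl has 0 to 2 reads in differentiated BIGH3 cells, against 9 to 24 in differentiated control cells, and Hey2 has none anywhere.

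Within a library the members can be set against each other as TPM ratios. Rbpj was 7.94, 8.50 and 14.7 times Hes1 in differentiated BIGH3 cells, against 2.06, 2.12 and 2.01 times in differentiated control cells. In undifferentiated cells the ratio was 2.72, 2.70 and 3.74 with BIGH3, against 2.81, 3.60 and 3.51 in controls. The 3 differentiated BIGH3 libraries thus had the highest ratios of the 12, and in undifferentiated cells the treatments overlapped. Rbpj was 5.10 to 6.51 times Jag1 in differentiated BIGH3 cells, 2.40 to 2.64 times in differentiated control cells, 1.94 to 1.99 times in undifferentiated BIGH3 cells and 1.82 to 1.94 times in undifferentiated control cells. Notch2 was 4.10 to 4.74 times Notch1 in differentiated BIGH3 cells, 3.10 to 3.39 times in differentiated control cells, 1.92 to 2.12 times in undifferentiated BIGH3 cells and 1.89 to 2.04 times in undifferentiated control cells. The ratio of Notch2 to Notch1 was higher in every differentiated library than in every undifferentiated one. No test was made on these ratios.

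**Figure D4:**
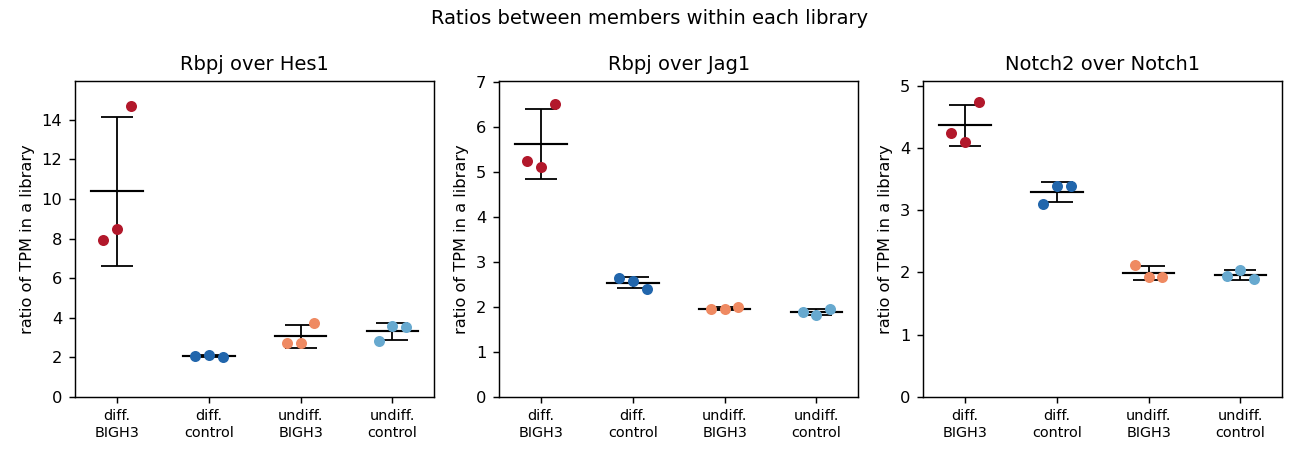
TPM ratios between members in each library (linear axis), by group, for differentiated (diff.) and undifferentiated (undiff.) cells. The ratio of Rbpj to Hes1 is 7.94 to 14.7 in differentiated BIGH3 cells and at most 3.74 in the other groups.

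The genes whose levels followed each member most closely were found by Pearson r of log2 CPM over the 12 libraries, among genes with a mean log2 CPM of at least 2. Since the libraries share the 4-group structure and depth, r is a description only. Rbpj ran closest to Hells, a chromatin remodeller (r = 0.996), Prr11 (0.995) and Ccdc18 (0.993), each of which had its lowest group mean in differentiated control cells and its highest in differentiated BIGH3 cells. Hells had 39.7 CPM in differentiated BIGH3 cells, 11.9 CPM in differentiated control cells, 30.0 CPM in undifferentiated BIGH3 cells and 29.2 CPM in undifferentiated control cells. Hes1 ran closest to Rac1, a small GTPase (r = 0.979), Thyn1 (0.970) and Anxa8, an annexin (0.970), and Anxa8 had 24.4 CPM in differentiated BIGH3 cells and 79.4 CPM in differentiated control cells. Jag1 ran closest to Ap4m1 (0.994), Slc44a2 (0.992) and Narf (0.992). Notch1 ran closest to Ier2, an immediate early gene (0.994), Erbb2, a receptor tyrosine kinase (0.993), and Myh9, nonmuscle myosin heavy chain (0.992). Notch3 ran closest to Tead2 (0.973), Igsf8 (0.970) and Abl1 (0.970). Notch2 had looser neighbours, Hdac5 (0.913), Pitpnm1 (0.884) and Snx11 (0.872), and Heyl ran closest to Fbxl17 (0.931), Garnl3 (0.917) and Dcp2 (0.905).

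The rest of the pathway was followed by role in 57 further genes, of which 47 were tested. With BIGH3 in differentiated cells 14 were called higher and 6 lower (42.6% of those tested, near the 45.5% of all genes), with a median log2 fold change of 0.01. On differentiation of control cells 9 were higher and 21 lower (63.8% against 57.7%). In TPM, tested with limma, the counts were 6 higher and 4 lower with BIGH3 in differentiated cells, and 3 higher and 32 lower on differentiation of control cells. Of all genes called in TPM on differentiation of control cells, 19.9% were higher with a pseudocount of 1. In undifferentiated cells edgeR called 0 of 47 with BIGH3, with 2 at an unadjusted p below 0.05, and DESeq2 and limma on TPM also called 0.

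Coactivators that join RBPJ and Notch were called higher with BIGH3 in 5 of 8 cases in differentiated cells and lower in none (0 by DESeq2 too), against 22.6% of all genes higher and 22.9% lower; in TPM 1 of the 8 was called higher. Crebbp and Ep300, histone acetyltransferases, had log2 fold changes of 0.31 and 0.22, Kat2b of 0.29 and Snw1 of 0.21 (edgeR adjusted p = 1.07e-04, 0.00158, 2.93e-04 and 0.00195). Crebbp had 53.6 ± 0.76 CPM in differentiated BIGH3 cells, against 43.2 ± 1.1 CPM in differentiated control cells. On differentiation of control cells 7 of 8 were lower (28.6% of all genes), with Ep300 at -0.57 and Crebbp at -0.51. In TPM 8 of 8 were lower, but most genes called there were lower too, with 19.9% of them higher (pseudocount of 1). Corepressors were lower in 2 of 8 cases with BIGH3 in differentiated cells, Hdac2 at -0.26 and Ctbp1 at -0.17, a share near the 22.9% of all genes. They were lower in 4 of 8 cases on differentiation of control cells (28.6% of all genes), with Spen at -0.54. In TPM 8 of 8 were lower, against the same background of mostly lower calls.

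Among the proteases that cut the receptor, 2 of 9 tested were higher and 1 lower with BIGH3 in differentiated cells, no larger a share than among all genes (45.5% in all). Adam17, a surface metalloprotease, had 147 ± 7.9 CPM in differentiated BIGH3 cells, against 99.8 ± 2.1 CPM in differentiated control cells (log2 fold change 0.55 ± 0.05, edgeR adjusted p = 1.25e-08), Ncstn was at 0.17 and Aph1b at -0.40. On differentiation of control cells 5 of 9 were higher and 2 lower (29.1% and 28.6% of all genes), but in TPM 2 were higher and 4 lower. Furin, which cuts the receptor on its way to the surface, was at 0.77 and Psen2, a gamma-secretase subunit, at 0.73. Of 4 glycosylation genes tested, BIGH3 raised Rfng (0.36) and Poglut1 (0.18) and lowered Lfng in differentiated cells (22.6% of all genes were called higher and 22.9% lower). Lfng, a Fringe enzyme that sets which ligands a receptor answers to, had 4.74, 4.39 and 4.42 CPM in differentiated BIGH3 cells, against 8.52, 7.50 and 7.87 CPM in differentiated control cells (-0.82 ± 0.13, adjusted p = 2.14e-05). The groups did not overlap. On differentiation of control cells 2 of these 4 were higher (29.1% of all genes), Poglut1 among them (0.39), and Rfng was lower (-0.21; 28.6% of all genes). In TPM 0 were higher and 2 lower, and DESeq2 called 1 higher and 1 lower.

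Of 11 genes of endocytosis and turnover tested, 4 were higher and 2 lower with BIGH3 in differentiated cells, a share near that of all genes (45.5%). Neurl1b, a ubiquitin ligase of Notch ligands, had 7.34, 6.63 and 6.77 CPM in differentiated BIGH3 cells, against 2.52, 2.64 and 1.78 CPM in differentiated control cells (1.58 ± 0.17, edgeR adjusted p = 1.15e-07). Its treated libraries lay near the undifferentiated ones, at 5.47, 7.02 and 6.42 CPM with BIGH3 and 7.74, 6.17 and 6.60 CPM in controls. Dtx4 was at 0.34, Dtx2 at -0.39 and Numbl, a relative of the Notch antagonist Numb, at -0.37. On differentiation of control cells 1 was higher and 5 lower (29.1% and 28.6% of all genes), with Mib2 at -0.97 and Dtx3 at -0.75. Of 3 other receptors and ligands tested, Notch4 was called with BIGH3 in differentiated cells (1.23 ± 0.39, adjusted p = 0.0139), with 1.50 ± 0.37 CPM there, against 0.634 ± 0.31 CPM in differentiated control cells; in TPM it was not called. Of the 4 other HES genes and targets tested, 0 were called with BIGH3 in differentiated cells by edgeR, DESeq2 or limma on TPM, and 0 had an unadjusted p below 0.05. Their log2 fold changes ran from -0.32 to 1.62, so the lack of a call does not show that they were unchanged. On differentiation of control cells 1 of the 4 was higher and 2 lower (29.1% and 28.6% of all genes), with log2 fold changes from -1.14 to 0.55. In TPM 0 were higher and 2 lower. By edgeR Hes6 was at 0.55 and Ccnd1, a G1 cyclin, at -0.47.

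**Figure D5:**
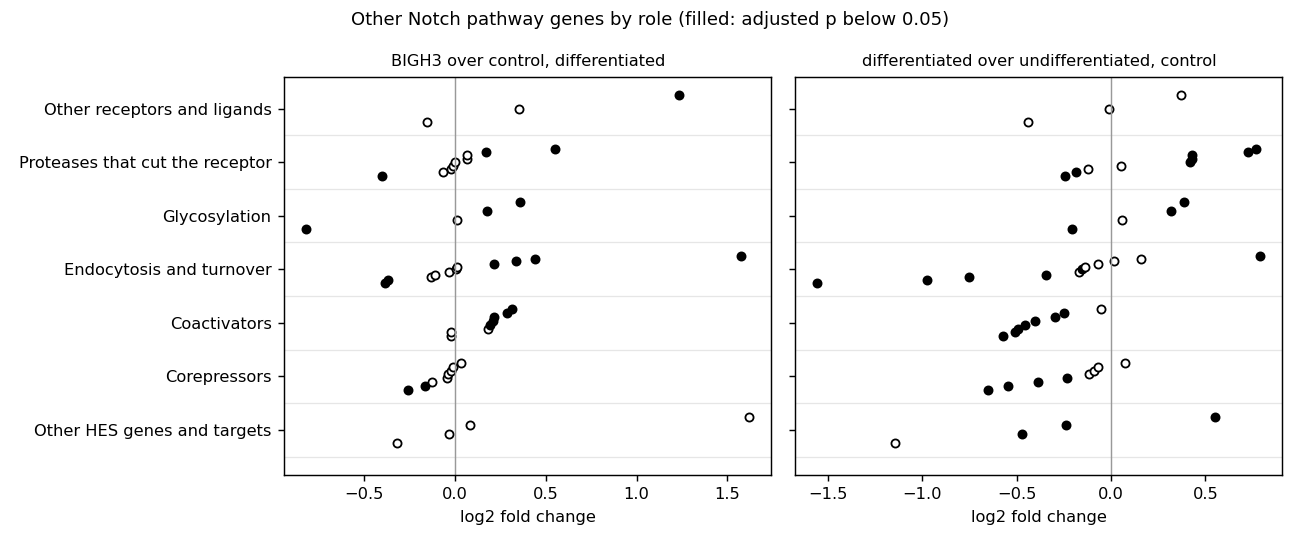
Log2 fold changes (edgeR) of the wider pathway genes tested, by role, for BIGH3 against control in differentiated cells and for differentiated against undifferentiated control cells; filled points passed an adjusted p of 0.05. With BIGH3 the coactivators lie from -0.02 to 0.31 and Neurl1b lies at 1.58, and on differentiation the coactivators lie from -0.57 to -0.05.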

How the data were processed

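Processed data of 12 libraries, 3 in each of 4 groups taken from the sample titles, were used. Per the submitters' processing notes, FastQC, cutadapt, Salmon, StringTie and mm10 were used, with versions and roles not given in the sources used here. Per the file headers, the authors deposited estimated counts per transcript, which need not be whole. They also deposited TPM and, in bases, an effective length. Of 147828 transcripts, 137063 (92.7%) matched GENCODE M21 (GRCm38) by identifier without version; the rest held 1.28% to 3.67% of reads and were left out.

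Estimated counts and TPM were summed per gene, and counts were rounded. Genes passing filterByExpr by group (14711) were fitted in edgeR 4.0.16 (R 4.3.3; TMM, robust quasi-likelihood, 1 term per group, 12 libraries, 8 residual degrees of freedom), two-sided, with Benjamini-Hochberg adjustment. CPM are TMM-scaled, and standard errors are the log2 fold change over the root of F. The biological coefficient of variation was 8.18%. The fit was also run on simulated counts in which few genes changed, unlike these data, so that run says little about the scaling used here. Alternatives were DESeq2 1.42.0, limma 3.58.1 on log2 TPM (pseudocounts 1 and 0.1, whose fold changes understate low genes), library totals, no filter, length offsets, a replicate block, compared groups alone, and libraries left out.

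All members were always named; of each role group, up to 4 genes called with BIGH3 in differentiated cells and 2 on differentiation of control cells with the smallest adjusted p; and for each member tested, the 3 genes of highest r with a mean log2 CPM of at least 2 and no predicted symbol. A gene that this rule names is not reported here. Anything else named was chosen after its values were seen. Members, lists and tests were chosen with earlier results of these data known.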

Additional observations from a re-analysis of the deposited data

Results flagged for a closer look

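For 4 of 7 members and 13 of 47 genes of the wider pathway list tested (27.7%, against 32.2% of all genes) the effect of BIGH3 differed between the states, by the edgeR test of the difference itself (log2 fold change in differentiated minus that in undifferentiated cells, adjusted p below 0.05 over all genes). Among members the difference was 0.72 for Rbpj, -0.36 for Jag1, -1.64 for Hes1 and -4.23 for Heyl. The Heyl value rests on 3 reads in differentiated BIGH3 cells, and Heyl passed the low-count filter through the other groups. Among genes acting on the receptor or ligand it was 0.54 for Adam17, 0.22 for Ncstn, -0.41 for Aph1b, -0.67 for Lfng, 0.50 for Rfng, 1.69 for Neurl1b, -0.35 for Numbl and 0.36 for Dtx3. Among cofactors it was 0.20 for Ep300, 0.37 for Crebbp, 0.27 for Kat2b, -0.34 for Hdac2 and -0.22 for Hdac1. In TPM, 2 members and 7 genes of the wider list (6 higher, 1 lower) were called with a pseudocount of 1. With either pseudocount 0 coactivators and 0 corepressors were called, so the calls of these cofactors were lost in TPM. The calls of Aph1b and Lfng were lost too, since 0 proteases and 0 glycosylation genes were called lower. DESeq2 called 2 coactivators higher.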

How the results depend on the processing

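Of 761 alternative values of the members' fold changes, 719 kept their direction and call, 17 were weaker, 9 stronger and 16 changed sign. The members called with BIGH3 in differentiated cells were 6, 5 to 7 without a library and 4 in TPM with either pseudocount. In controls 4 were called on differentiation, and 6 in TPM with either pseudocount (1 higher, 5 lower). On differentiation with BIGH3, 7 members were called, 6 to 7 without a library and 4 in TPM with a pseudocount of 1. For the difference between states it was 4, 4 to 5 without a library and 2 in that TPM fit. The number of genes called in undifferentiated cells was 3, but 8 with DESeq2, 21 with no filter, 1 with length offsets, 1 and 0 in TPM (pseudocount 1 and 0.1), 0 with the compared groups alone, 1 and 5 without the 3 or 4 libraries with liver transcripts, and 0 to 3 without a library. The causes were not tested.

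The signs that turned were these. With BIGH3 in undifferentiated cells Hes1 became -0.075 without the 4 libraries with liver transcripts and Rbpj became -0.045 and -0.046 in TPM. On differentiation of control cells Hes1 became -0.10 with library totals, -0.19 and -0.20 in TPM, -0.036 without undifferentiated control 2 (-0.036 to 0.18 without a library) and -0.027 and -0.028 without the 3 or 4 libraries with liver transcripts, and Notch2 became 0.0026 with length offsets and 0.0069 without differentiated control 3 (-0.044 to 0.0069 without a library). On differentiation with BIGH3, TPM gave -0.0315 and -0.0329 for Notch2 and -0.0338 and -0.0344 for Rbpj. For Notch3 the difference between states became 0.077 without the 4 libraries. Of genes called on differentiation, 51.1% with BIGH3 and 50.5% in controls were higher, against 36.9% and 33.2% with library totals, 27.0% and 19.9% in TPM with a pseudocount of 1, and 26.8% and 20.0% with 0.1. For the difference between states 50.3% were higher, against 65.9% and 66.0% in TPM.

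Libraries of the same number did not deviate together throughout, with correlations of -0.224 to 0.350 over 18 pairs. The highest was between undifferentiated control 2 and differentiated control 2, both rich in liver transcripts. With differentiated BIGH3 3, also rich in them but of another number, these libraries reached 0.326 and 0.323. The numbers were therefore not taken to pair libraries. With a replicate block 6639 genes were called with BIGH3 in differentiated cells, against 6687 without it, and the block changed no member's call. Depth limits what can be said of Heyl, Jag2, Hey1 and Hey2.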
